A study of Mus musculus with 473 samples.

Results

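The mouse genes whose symbols begin with Kcn encode the pore-forming and auxiliary subunits of potassium channels. The deposited table of 28952 features held 94 protein-coding Kcn genes, and 71 of them had a mean of at least 1 FPKM (fragments scaled by transcript length and by the mapped fragments of the library) in at least 1 of 5 groups of cells. These 71 genes are described here, and the other 23 stayed below that minimum. Just inside the minimum lay Kcna1, Kcne2 and Kcng2, whose highest group means were 1.34, 1.34 and 1.35 FPKM. Among those just outside it were Kcng3 at 0.990 and Kcnk15 at 0.721 FPKM. Of the 71 genes, 29 reached the minimum in all 5 groups, 20 in 4 groups, 4 in 3 groups, 7 in 2 groups and 11 in a single group; a gene that entered through 1 high group had to differ between groups.

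The cells came from Th:EGFP mice, hemizygous for the bacterial artificial chromosome transgene Tg(Th-EGFP)DJ76Gsat on a Swiss Webster background, in which regulatory sequence of the tyrosine hydroxylase gene drives enhanced green fluorescent protein (EGFP). All groups carried the transgene, and single EGFP-positive cells that excluded propidium iodide were sorted and sequenced with Smart-Seq2, a full-length method for polyadenylated RNA. Embryonic day 15.5 (E15.5) cells were taken from forebrain (FB) and midbrain (MB). Postnatal day 7 (P7) cells came from FB (the hypothalamus), MB and the olfactory bulb (OB). Summed hypothalamus and olfactory bulb interneuron markers had means of 893 and 1065 FPKM in E15.5 FB and of 3323 and 173 in P7 FB. The part of this in FB differences by age was not tested. Tissue of 4 embryos or of 5 pups was pooled for each region, so each group was 1 pool of animals, its cells were not replicates, and differences between groups had no replicate check and no test. Used here were 84 FB and 88 MB cells at E15.5 and 31 FB, 30 MB and 16 OB cells at P7. They were labelled dopaminergic neurons. At P7, Th reached FPKM of 1 in 30 of 31 FB cells, 29 of 30 from MB and 16 of 16 from OB, whereas at E15.5 it did so in 27 of 84 FB and 26 of 88 MB cells. Most E15.5 cells were thus without Th at this level, although sorted for the reporter.

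These 249 cells are labelled as having passed quality control and lay on plates whose gene numbers in the labels matched the columns of the same name. On 2 further P7 plates the correlations were -0.0338 and -0.0519 and became 0.9987 and 0.9992 when the columns of these plates were exchanged well by well. Their 147 passed cells (50 of FB, 45 of MB and 52 of OB) were kept out of the main values and are given as "the exchanged plates" beside P7 results. The median number of genes per cell in the labels was 5554.5 (FB) and 6227.5 (MB) at E15.5 and 5164 (FB), 6126.5 (MB) and 3310 (OB) at P7. The depth in reads is unknown. Summed markers of astrocytes, endothelial cells and pericytes had a median of 0 FPKM in every group, and no microglial marker reached a mean of 1. Those of the oligodendrocyte lineage had medians of 2.96 (FB) and 11.4 (MB) at E15.5 and of 10.01 (FB), 5.13 (MB) and 0.436 (OB) at P7, and their part in the results was not tested.

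A potassium channel lets potassium leave the cell and so brings the membrane back towards rest. Voltage-gated (Kv) channels repolarise the action potential; among them, Kv4 channels with their KChIP subunits carry the fast A-type current that sets the rhythm of pacemaking in midbrain dopaminergic neurons. Calcium-activated SK channels make the afterhyperpolarisation that regularises this pacemaking. Inward rectifiers of the GIRK type, which include the product of Kcnj6, open when G-protein-coupled receptors such as the dopamine D2 autoreceptor are engaged, and K2P channels carry a background leak. The genes Kcnip4, Kcnd3 and Kcnj6 were given at the outset as markers of the family and encode a KChIP, a Kv4 pore subunit and a GIRK subunit.

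The regional differences below turn in part on 5 genes. On the P7 plate with matching labels, 4 of them had their mean highest in MB and 1, Kcnc2, highest in OB. Promoter sequences of these 5 genes are printed. They come from RefSeq on build GRCm38.p6, 250 bases before to 50 after an annotated start, 5′ to 3′ on the gene's own strand. Capitals mark 3 motifs searched on both strands: the GC box, spelled GGGCGG here, the CCAAT box, which reads ATTGG when it lies on the opposite strand, and AGGTCA, the core letters of many nuclear receptor sites, which read TGACCT when opposite. The windows lie at chr5:49285610-49285909 on the minus strand for Kcnip4, chr3:105451640-105451939 on the plus strand for Kcnd3, chr3:89519914-89520213 on the plus strand for Kcnn3, chr16:94997647-94997946 on the minus strand for Kcnj6 and chr10:112269767-112270066 on the plus strand for Kcnc2. The Kcnip4 window lies inside the longer gene model of GENCODE M21, and Kcnip4, Kcnj6 and Kcnc2 have 2, 2 and 4 such windows in the table, of which 1 is shown.
Kcnip4: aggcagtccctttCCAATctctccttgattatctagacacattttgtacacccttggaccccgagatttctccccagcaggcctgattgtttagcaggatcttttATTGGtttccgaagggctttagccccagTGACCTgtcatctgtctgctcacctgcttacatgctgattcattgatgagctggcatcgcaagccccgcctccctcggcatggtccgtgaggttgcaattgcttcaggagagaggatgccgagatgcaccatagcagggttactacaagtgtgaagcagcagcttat
Kcnd3: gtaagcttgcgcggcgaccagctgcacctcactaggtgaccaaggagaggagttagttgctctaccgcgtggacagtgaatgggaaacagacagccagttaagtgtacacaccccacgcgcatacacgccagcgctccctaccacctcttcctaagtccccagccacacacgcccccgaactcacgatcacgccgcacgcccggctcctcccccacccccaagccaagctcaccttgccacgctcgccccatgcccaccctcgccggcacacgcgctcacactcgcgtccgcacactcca
Kcnn3: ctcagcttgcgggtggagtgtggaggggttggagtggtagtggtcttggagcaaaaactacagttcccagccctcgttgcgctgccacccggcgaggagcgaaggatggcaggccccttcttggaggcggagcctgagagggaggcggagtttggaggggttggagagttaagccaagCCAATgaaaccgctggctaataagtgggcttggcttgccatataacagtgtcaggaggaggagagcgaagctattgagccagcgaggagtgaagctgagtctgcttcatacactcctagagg
Kcnj6: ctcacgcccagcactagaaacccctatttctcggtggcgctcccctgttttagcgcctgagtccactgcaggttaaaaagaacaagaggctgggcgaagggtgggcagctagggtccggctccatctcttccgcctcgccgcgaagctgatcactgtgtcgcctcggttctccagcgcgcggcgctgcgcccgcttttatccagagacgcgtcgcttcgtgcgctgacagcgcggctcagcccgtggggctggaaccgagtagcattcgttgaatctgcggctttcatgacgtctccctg
Kcnc2: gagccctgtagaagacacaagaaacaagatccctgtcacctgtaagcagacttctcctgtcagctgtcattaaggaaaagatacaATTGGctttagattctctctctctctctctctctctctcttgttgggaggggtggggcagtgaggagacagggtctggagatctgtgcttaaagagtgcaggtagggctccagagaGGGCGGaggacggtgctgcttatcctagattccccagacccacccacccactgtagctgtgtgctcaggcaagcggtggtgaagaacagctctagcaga

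The windows differ in composition. The Kcnd3 and Kcnj6 windows held 25 and 30 CpG dinucleotides and none of the 3 motifs. The Kcnn3 window held 11 CpG and a CCAAT box at position 179 from its 5′ end. The Kcnip4 window held 7 CpG, a CCAAT box on either strand at positions 14 and 106 and AGGTCA on the minus strand at position 134, while that of Kcnc2 held 3 CpG, a GC box at position 202 and a CCAAT box on the minus strand at position 86. The windows shown for the 4 genes highest in MB on the matching plate thus had no motif in common among those searched. RefSeq held 76 windows for 52 of the 71 genes, with a median of 9.5 CpG against 7 over all 32851 windows. GGGCGG was present in 50% of the windows of Kcn genes and 35.7% of all windows, CCAAT in 31.6% and 37.4%, and AGGTCA in 6.58% and 16.3%. A match describes letters and is not a bound site.

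Expression of the family was sparse and broad. A cell had a gene when its FPKM was 1 or more, here called found. At E15.5 an FB cell had a median of 12 of the 71 genes (range 2 to 34) and an MB cell 16 (2 to 32), and at P7 an FB cell had 17 (4 to 27), an MB cell 19.5 (12 to 30) and an OB cell 11 (3 to 23). On the exchanged plates these P7 medians were 15, 20 and 11. The number of Kcn genes per cell moved with the number of all genes per cell (Pearson's r across cells of 0.81, 0.77, 0.90, 0.63 and 0.86 in the same order of groups, all from the same libraries). How far depth sets the regional order was not tested. Genes found in at least 50% of cells numbered 5 (FB) and 9 (MB) at E15.5 and 8 (FB), 14 (MB) and 4 (OB) at P7. In P7 OB 23 of the 71 genes were found in none of 16 cells, which allows a share of up to 18.8% of cells, whereas on the exchanged plates 9 genes were found in none of 52 OB cells. The summed FPKM of the 71 genes made up a median of 0.0680% (FB) and 0.0754% (MB) of a cell's total at E15.5 and of 0.0963% (FB), 0.104% (MB) and 0.131% (OB) at P7, and the ranges over cells overlapped between all groups.

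**Figure D1:**
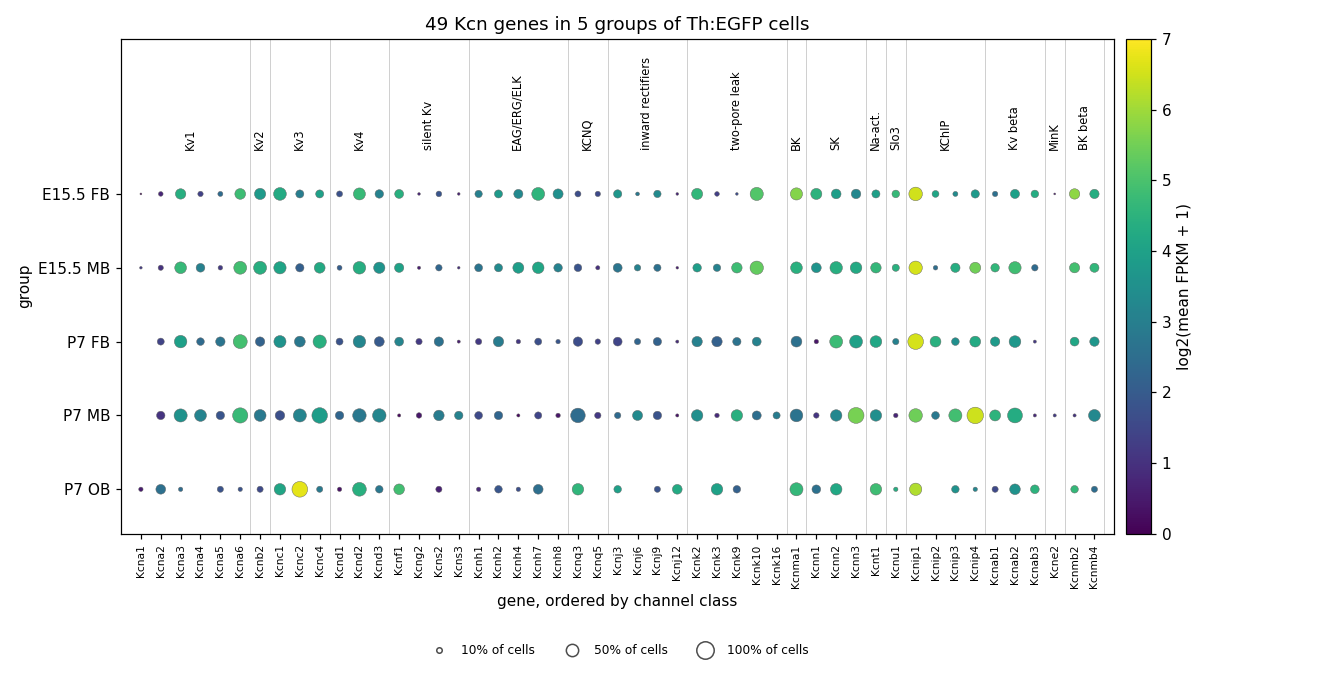
The potassium channel genes named in the text (columns, grouped by role) in 5 groups of cells (rows); the area of a dot is the share of cells at FPKM of 1 or more and its colour is log2(mean FPKM + 1). Kcnip1 is high in every group, Kcnip4 and Kcnn3 stand out in P7 MB, and Kcnc2 stands out in P7 OB.

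The leading genes by mean FPKM, which is scaled by transcript length and so can be set side by side between genes, included the auxiliary KChIP subunits. Kcnip1 led in E15.5 MB at 92.03 FPKM. At P7, Kcnip1 led in FB at 91.9, Kcnip4 in MB at 88.1 and Kcnc2 in OB at 104. Kcnip1 was among the 5 leading genes of every group. No Kcn gene was found in every cell of any of these 5 groups, so the lowest value of each gene was below 1 FPKM in each group, and below only medians and highest values are given.

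Between regions of 1 age, most Kcn genes stayed within 2-fold between MB and FB, and more differed between OB and the other regions. Folds are log2((mean FPKM + 1)/(mean FPKM + 1)), which understates the difference of low genes, and a gene was counted as higher or lower when past 2-fold. In E15.5 MB over E15.5 FB, 9 of 71 genes were higher and 5 lower (12.7% and 7.04%), where 7.21% and 7.7% of 13632 protein-coding genes under the same minimum were. In P7 MB over P7 FB, 9 were higher and 13 lower, against 9.03% and 11.6% of all genes. In P7 MB over P7 OB, 24 were higher and 21 lower, against 25.8% and 17%, and in P7 FB over P7 OB 25 were higher and 16 lower, against 26.8% and 15.1%. Those 2 comparisons share the OB cells, and 10 of the 24 and 12 of the 25 genes higher than in OB were listed at 0 in OB. The median log2 fold of the 71 genes and of all protein-coding genes was 0.15 and -0.09 at E15.5, -0.18 and -0.03 in P7 MB over FB, 0.08 and 0.10 in P7 MB over OB, and 0.40 and 0.16 in P7 FB over OB. With each cell rescaled to the same total FPKM, 8 genes were higher and 2 lower at E15.5, against 3.92% and 2.97% of all genes, and 8 were higher and 11 lower in P7 MB over FB, against 8.74% and 9.93%. Over OB the rescaled counts were 25 and 21 for MB, against 24.3% and 16.5%, and 24 and 16 for FB, against 24.3% and 15.2%.

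On the exchanged plates, all 9 genes higher in P7 MB than FB had the same sign and 6 were past 2-fold, and of the 13 lower genes 10 had the same sign and 3 were past 2-fold. Of the genes higher and lower in P7 MB than OB, 21 of 24 and 18 of 21 kept their sign and 7 and 9 were past 2-fold. In P7 FB over OB, 19 of 25 and 11 of 16 kept their sign and 8 and 6 were past 2-fold. Total FPKM per cell had a median of 493126 to 545503 in the 3 P7 groups and of 214296 to 243421 on the exchanged plates, so a pseudocount of 1 shrinks folds more on the latter. Its part in the folds that fell short of 2-fold or changed sign there was not tested.

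**Figure D2:**
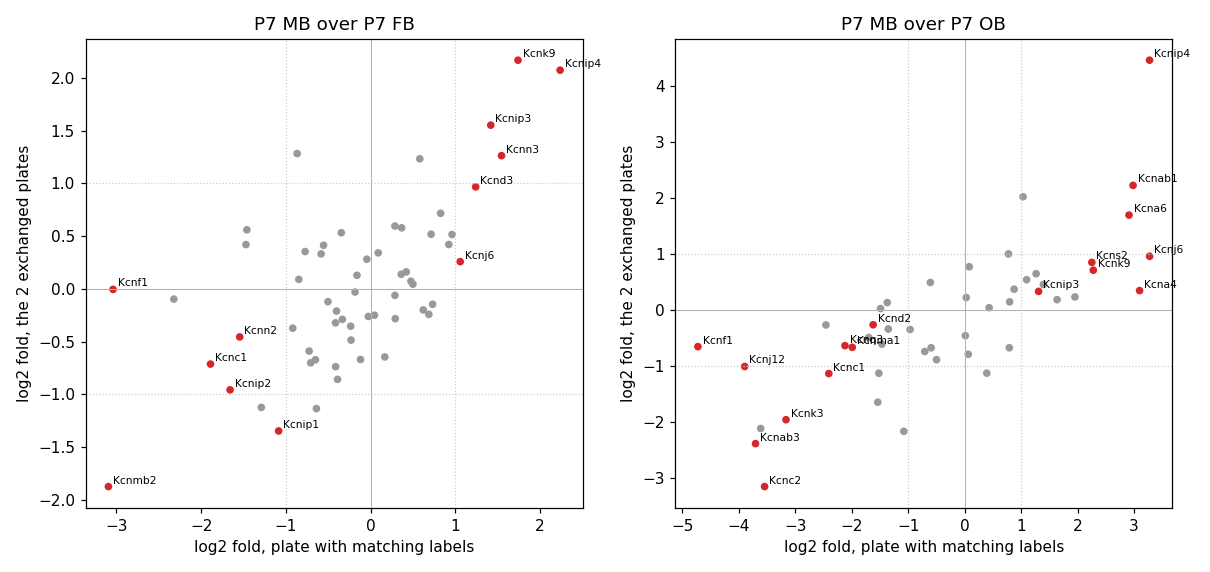
Log2 folds of Kcn genes on the P7 plate with matching labels (horizontal) and on the 2 exchanged P7 plates (vertical), for MB over FB (left, 59 genes) and MB over OB (right, 48 genes); genes with a group listed at 0 are left out, named genes are red and dotted lines mark 2-fold. Kcnip4, Kcnk9, Kcnip3 and Kcnn3 lie past 2-fold on both axes at the left, and Kcnip4 and Kcnc2 are at opposite corners at the right, while Kcnf1 is low on the matching plate alone.

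Kcnip4, which encodes KChIP4, a calcium-binding subunit of Kv4 channels (mm10 chromosome 5, 48389502 to 49524907, minus strand), was highest in P7 midbrain. In P7 MB its median over 30 cells was 73.1 FPKM, its highest value 252 and its mean 88.1 ± 71.7 (SD over cells), and 90% of cells had it (exact 95% interval 73.5% to 97.9%, counting error only, as for all such intervals). In P7 FB the median was 0, the highest value 106 and the mean 17.9 ± 31.6, and in P7 OB a single cell at 130 FPKM was above 1. The P7 MB median lay below the highest FB and OB cells, so the groups overlapped, but 12 of 31 FB cells and 1 of 16 OB cells had Kcnip4 against 27 of 30 in MB. In E15.5 MB the mean was 43.8 ± 118, with a highest value of 857 and 35 of 88 cells, and in E15.5 FB it was 12.49 ± 33.1, with a highest value of 160 and 19 of 84 cells. The log2 fold of MB over FB was 1.73 at E15.5 and 2.24 at P7, and that of P7 MB over OB was 3.27. Both P7 differences were present on the exchanged plates, at 2.07 and 4.46, where 39 of 45 MB, 18 of 50 FB and 2 of 52 OB cells had the gene.

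The other KChIP genes divided between the regions. Kcnip3, encoding KChIP3 (also called DREAM or calsenilin), followed Kcnip4: 17 of 30 P7 MB cells had it, with a mean of 28.6 ± 42.6, against 6 of 31 FB cells with 10.1 ± 34.1, a log2 fold of 1.42 (1.55 on the exchanged plates). Kcnip1 and Kcnip2 went the other way. Kcnip1 was found in 25 of 31 P7 FB cells, with a median of 59.9, a highest value of 340 and a mean of 91.9 ± 90.9, and in 18 of 30 MB cells, with a median of 19.5, a highest value of 305 and a mean of 42.8 ± 64.7. Its log2 fold of MB over FB was -1.09 (-1.35 on the exchanged plates). Kcnip2 had a mean of 20.9 ± 29.9 in P7 FB and 5.93 ± 16.5 in P7 MB, a log2 fold of -1.66 (-0.96). It was listed at 0 in the 16 OB cells of the matching plate. Its log2 fold of FB over OB was past 2-fold in 9 of 10 alternatives, the lowest being 0.37. So at P7 the KChIP class held 2 genes higher and 2 lower in MB than FB, against 9.03% and 11.6% of all genes. At E15.5, Kcnip1 means were near equal, at 88.999 ± 118 in FB and 92.03 ± 182 in MB.

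Kcnd3 encodes a Kv4 pore subunit and lies on chromosome 3 (mm10 105452330 to 105674002, plus strand). It was found in 18 of 30 P7 MB cells (60%, interval 40.6% to 77.3%), with a median of 4.15, a highest value of 33.6 and a mean of 8.28 ± 10.2 FPKM. In P7 FB 10 of 31 cells had it, with a highest value of 19.0 and a mean of 2.93 ± 5.17, and in P7 OB 3 of 16 cells, with a highest value of 64.5 and a mean of 5.88 ± 16.4. The log2 fold of P7 MB over FB was 1.24 (0.97 on the exchanged plates). That of MB over OB was 0.43, the OB mean on the matching plate resting on few high cells. Over 10 alternatives the fold over OB lay between -0.02 and 1.50. On the exchanged plates, Kcnd3 was found in 7 of 15 OB cells labelled cluster P7.OB.1, with a mean of 9.66. There it was also found in 6 of 37 other OB cells, with a mean of 1.90. At E15.5 the means were 11.3 ± 18.9 in MB (37 of 88 cells) and 7.49 ± 25.4 in FB (20 of 84 cells), a log2 fold of 0.53. The other Kv4 genes did not share this order. Kcnd2 had means of 8.24 ± 11.6 in P7 FB, 5.94 ± 7.60 in MB and 20.4 ± 28.5 in OB, with log2 folds of -1.62 for MB over OB and -1.21 for FB over OB, which were -0.26 and 0.48 on the exchanged plates. Kcnd1 was low in all groups, between 0.249 and 3.83 FPKM. Of 30 P7 MB cells, 18 had both Kcnip4 and Kcnd3, 9 had Kcnip4 alone, none had Kcnd3 alone and 3 had neither, and on the exchanged plates the counts were 23, 16, 4 and 2. Since most MB cells had Kcnip4, these counts alone show no pairing of the genes.

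**Figure D3:**
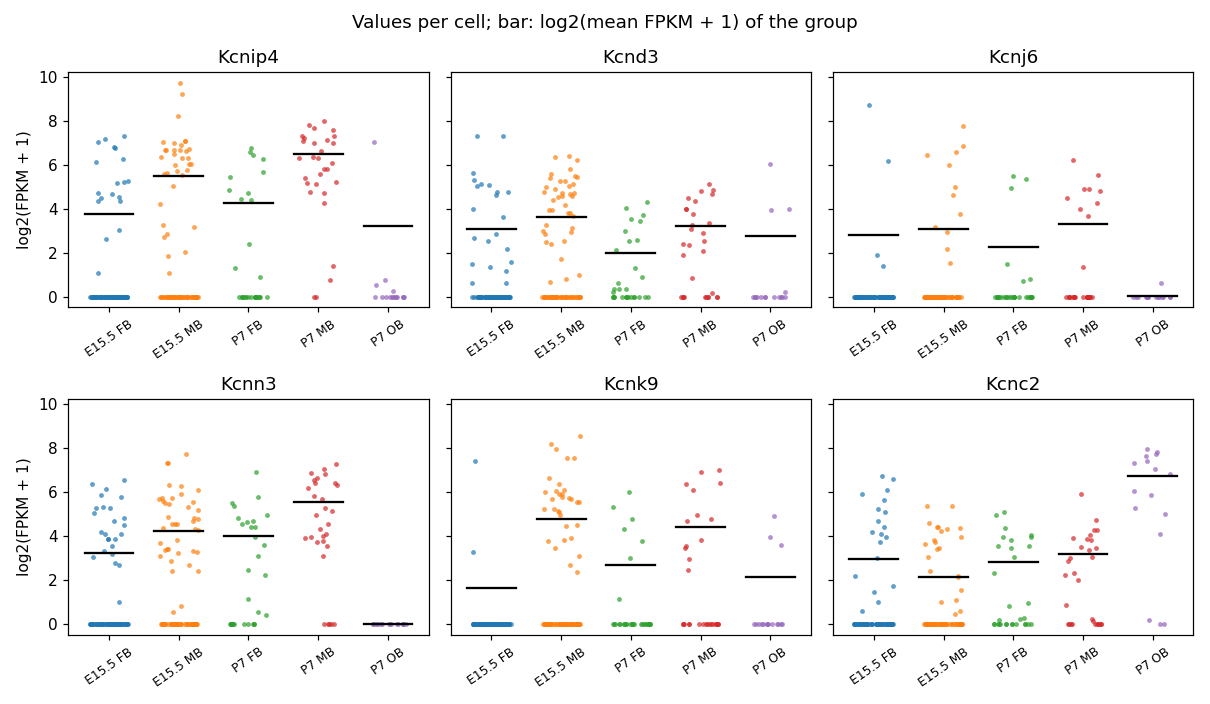
Level of 6 genes in each cell, as log2(FPKM + 1), in 5 groups; each point is a cell and the bar is log2(mean FPKM + 1). Most P7 MB cells lie above 0 for Kcnip4 and Kcnn3, Kcnj6 is above 0 in few cells of any group, and the P7 OB cells reach the highest Kcnc2 values.

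Kcnn3, encoding the SK3 subunit that dominates the afterhyperpolarisation of midbrain dopaminergic neurons (mm10 chromosome 3, 89520164 to 89675132, plus strand), had a regional order like that of Kcnip4. In P7 MB 25 of 30 cells had it (83.3%, interval 65.3% to 94.4%), with a median of 26.1, a highest value of 156 and a mean of 45.9 ± 45.3 FPKM. In P7 FB 17 of 31 cells had it, with a median of 3.61, a highest value of 118 and a mean of 15.1 ± 24.4, and it was listed at 0 in all 16 OB cells. MB and FB overlapped, with a log2 fold of 1.54 (1.26 on the exchanged plates, where 38 of 45 MB, 24 of 50 FB and 3 of 52 OB cells had it). No fold is given against OB on the matching plate, and the fold was 2.28 on the exchanged plates. At E15.5 the means were 17.7 ± 36.1 in MB and 8.48 ± 18.8 in FB.

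The other SK genes had different patterns. Kcnn2 (SK2) was higher in P7 FB, at 26.4 ± 63.2, than in MB, at 8.37 ± 14.5, a log2 fold of -1.55, but 40% of the FB total came from 1 cell and the fold was -0.46 on the exchanged plates. Within FB and MB, a larger share of cells had Kcnn1 (SK1) at E15.5 than at P7. The E15.5 counts were 34 of 84 (FB) and 28 of 88 (MB), against P7 counts of 2 of 31 and 3 of 30. The P7 OB mean of Kcnn1 was higher than that of P7 FB. Its log2 fold of FB over OB was -2.21, and between -3.65 and -0.77 over 10 alternatives.

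Kcnma1, which encodes the pore of BK channels gated by calcium and voltage, and Kcnmb2, encoding a BK beta subunit that inactivates them, had higher means in FB than in MB at E15.5. In E15.5 FB, 41 of 84 cells had Kcnma1, with a highest value of 823 and a mean of 51.3 ± 120, and in 40 of 88 MB cells, with a mean of 20.8 ± 39.6. Its log2 fold of MB over FB was -1.26, and -0.94 when each cell was rescaled to the same total. Kcnmb2 had means of 55.01 ± 127 and 28.8 ± 69.1 in these groups, a log2 fold of -0.91. At P7 Kcnmb2 was found in 8 of 31 FB cells, with a mean of 16.7 ± 33.4, and in 1 of 30 MB cells, at 32.01 FPKM. The P7 log2 fold of MB over FB was -3.09 (-1.88 on the exchanged plates, where 9 of 50 FB and 1 of 45 MB cells had it). Kcnma1 itself was near equal in P7 FB and MB, at 4.95 ± 8.81 and 5.33 ± 7.92. In 30 P7 MB cells the pair was found together in 1 cell and Kcnma1 alone in 15, whereas of 84 E15.5 FB cells 19 had both, 22 Kcnma1 alone and 11 Kcnmb2 alone.

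Among Kv3 genes, whose channels open and close fast enough for high firing rates, Kcnc2 marked the olfactory bulb (mm10 chromosome 10, 112271121 to 112467024, plus strand). In P7 OB 13 of 16 cells had it (81.2%, interval 54.4% to 96.0%), with a median of 88.96, a highest value of 247 and a mean of 104 ± 88.8 FPKM. In P7 MB the median was 3.86, the highest value 59.5 and the mean 8.01 ± 12.1, and in P7 FB the median was 0.155, the highest value 33.5 and the mean 5.99 ± 9.18. On the matching plate the OB median exceeded the highest cell of either other region. The log2 folds were -3.55 for MB over OB and -3.91 for FB over OB, and -3.14 and -3.72 on the exchanged plates, where 36 of 52 OB cells had the gene with a median of 31.1, below the highest MB cell there at 36.4. The E15.5 means were 6.72 ± 19.3 in FB and 3.34 ± 8.01 in MB. Kcnc1 was lower in P7 MB, at 2.27 ± 4.99, than in FB, at 11.1 ± 17.7, or OB, at 16.3 ± 31.04, with log2 folds of -1.89 and -2.41 (-0.71 and -1.13 on the exchanged plates). Kcnc4 had means between 6.16 FPKM in P7 OB and 20.6 in P7 FB.

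Of 6 Kv1 genes, whose channels hold axons and terminals near rest, Kcna6 and Kcna3 were the most abundant. Kcna6 had E15.5 means of 26.7 ± 64.2 (FB) and 28.6 ± 46.5 (MB). Its P7 means, at 28.8 ± 34.2 (FB) and 25.2 ± 22.6 (MB), lay close to these, and 1 pool per group gave no test of their order. In P7 OB Kcna6 was found in 1 of 16 cells, with a mean of 2.49 ± 9.73. Its log2 fold was 2.91 for MB over OB and 3.09 for FB over OB, and on the exchanged plates 8 of 52 OB cells had it against 34 of 45 in MB and 30 of 50 in FB. Kcna4 was higher in MB than FB at E15.5, at 7.35 ± 20.1 against 1.60 ± 5.72, a log2 fold of 1.68. At P7 its fold over OB was 3.10 on the matching plate, where no OB cell had it, and 0.35 on the exchanged plates, where 9 of 52 OB cells did. Of the Kv beta genes, whose products join Kv1 channels and in part inactivate them, Kcnab1 was found in 12 of 30 P7 MB and 2 of 16 OB cells, a log2 fold of 2.98 (2.23 on the exchanged plates). It was also higher in E15.5 MB than FB, with 21 of 88 cells at a mean of 23.5 ± 60.8 against 8 of 84 at 4.93 ± 27.8, a log2 fold of 2.05. Kcnab3 was lower in E15.5 MB than FB, with a log2 fold of -1.89 (means of 4.38 ± 13.9 and 18.9 ± 54.7), but at P7 this fold was -0.35 (0.53 on the exchanged plates). At P7 it was found in 4 of 16 OB cells and 1 of 30 MB cells, a log2 fold of -3.71 (0.80 over cells with 4000 or more genes). On the exchanged plates 20 of 52 OB and 3 of 45 MB cells had it, a log2 fold of -2.38. Kcnab2 lay between 10.6 and 27.9 FPKM in the 5 groups.

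Kv2 and the electrically silent Kv subunits, which form no channel alone but modify Kv2 channels, were mostly low. Kcnb2 had its highest mean in E15.5 MB, at 20.0 FPKM. Of 7 silent subunit genes, 1 was higher and 3 lower in P7 MB than FB, against 9.03% and 11.6% of all genes. In P7 FB over OB, 5 were higher and 1 lower, against 26.8% and 15.1%. Kcnf1, the most abundant of them, was found in 1 of 30 P7 MB, 8 of 31 FB and 6 of 16 OB cells, with means of 0.114 ± 0.623, 8.16 ± 16.6 and 28.5 ± 46.7. Its log2 folds of -3.04 over FB and -4.73 over OB shrank to -0.01 and -0.65 on the exchanged plates, where 7 of 45 MB cells had it. Kcns2 was higher in P7 MB and FB than OB, with log2 folds of 2.25 and 1.96 (0.85 and 1.14 on the exchanged plates). Kcns3 had a mean of 7.66 in P7 MB, where fewer than 25% of cells had it, and at most 0.933 in any other group.

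The KCNQ genes encode slowly gating Kv subunits that lack fast inactivation. Of these, Kcnq3 was found in 21 of 30 P7 MB cells with a mean of 4.45 ± 5.50 and in 7 of 16 OB cells with 22.7 ± 44.2, so more MB cells had it while the OB mean was higher. The log2 fold of MB over OB was -2.12 (-0.63 on the exchanged plates).

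Kcnj6 encodes GIRK2, the GIRK subunit best known from dopaminergic neurons of the ventral midbrain (mm10 chromosome 16, 94748636 to 94997701, minus strand). It was sparse in all groups. In P7 MB 10 of 30 cells had it (33.3%, interval 17.3% to 52.8%), with a highest value of 72.9 and a mean of 9.00 ± 17.1, and in P7 FB 4 of 31 cells, with a highest value of 44.2 and a mean of 3.81 ± 11.6. No P7 OB cell had it, which allows a share of up to 18.8%. The medians were 0 in all groups and the groups overlapped. The log2 fold of P7 MB over FB was 1.06, but 0.26 on the exchanged plates, where 10 of 45 MB, 6 of 50 FB and 1 of 52 OB cells had it. The log2 fold over OB was 3.28 (0.96 on the exchanged plates). At E15.5, 12 of 88 MB and 4 of 84 FB cells had it, with means of 7.49 ± 29.5 and 5.98 ± 47.1. A single FB cell at 427 FPKM carried that FB mean, which was 0.901 without it; the log2 fold of MB over FB was 0.28 with all cells and 1.69 with the highest cell of each group left out.

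Of the other 10 inward rectifier genes, 3 reached a mean of 5 FPKM in any group. Kcnj3 (GIRK1) and Kcnj9 (GIRK3), which assemble with GIRK2, had P7 MB means of 4.30 ± 16.3 and 2.47. Of the P7 MB cells with Kcnj6, 1 of 10 had Kcnj3 and 4 of 10 had Kcnj9, and on the exchanged plates 1 of 10 had either. Kcnj12, a classical strong rectifier, was found in 5 of 16 P7 OB cells with a mean of 18.2 ± 33.4 and in 1 of 30 MB cells, a log2 fold of -3.90, but in 4 of 52 OB cells with 1.71 ± 6.99 on the exchanged plates. Inward rectifiers were 1 higher and 4 lower of 11 in P7 MB than OB, against 25.8% and 17% of all genes. Kcnj6 was the 1 higher, and it fell short of 2-fold on the exchanged plates (0.96).

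The K2P leak genes held the largest regional difference at E15.5. Kcnk9, encoding the acid-sensitive channel TASK-3, was found in 32 of 88 E15.5 MB cells, with a highest value of 373 and a mean of 26.7 ± 63.3, and in 2 of 84 FB cells, of which 1 was at 169 FPKM (2.38%, interval 0.29% to 8.34%). The log2 fold of 3.15 was the largest of the 71 genes in that comparison. At P7 13 of 30 MB cells had it, with a mean of 20.3 ± 37.0, against 7 of 31 FB cells with 5.39 ± 13.9, a log2 fold of 1.74 (2.17 on the exchanged plates), and 3 of 16 OB cells with 3.40 ± 8.11, a log2 fold of 2.28 (0.71). Kcnk3, its relative TASK-1, ran the other way over OB: 2 of 30 P7 MB and 7 of 16 OB cells had it, a log2 fold of -3.17, and 3 of 45 and 17 of 52 did on the exchanged plates. Kcnk16, encoding the alkaline-activated TALK-1 channel known from pancreatic islets, was listed at 0 in every cell of all groups but P7 MB. There it was found in 5 of 30 cells, with a highest value of 119 and a mean of 6.53 ± 22.5, and on the exchanged plates in 11 of 45 MB cells and no FB or OB cell. Kcnk2 and Kcnk10, encoding the mechanically gated TREK channels, were found in 13 and 8 of 30 P7 MB cells and in no OB cell. On the exchanged plates, however, Kcnk10 was found in 8 of 52 OB cells. The log2 fold of Kcnk2 over OB was 3.46 for MB and 3.04 for FB. Over 10 alternatives these folds were as low as 0.69 and 0.53.

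At E15.5, the EAG, ERG and ELK genes, which encode Kv channels related to ether-a-go-go of the fly, showed no member past 2-fold between regions. Of all protein-coding genes, 7.21% were higher and 7.7% lower in E15.5 MB than FB. Kcnh7 (ERG3) had means of 22.5 ± 41.9 in FB and 16.6 ± 36.4 in MB, and Kcnh4, Kcnh8, Kcnh2 and Kcnh1 lay between 5.48 and 13.8 FPKM. Of the channels gated by sodium, Kcnt1 had means between 10.1 in P7 MB and 27.3 in P7 OB. Kcnu1, the Slo3 gene known from sperm, had means of 24.9 in E15.5 FB and 20.8 in E15.5 MB, and its P7 OB mean of 19.2 came from 1 cell at 308 FPKM.

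Several Kcn genes singled out clusters of cells in the authors' labels. The clusters were made from these cells' own expression, so the values describe them and test nothing. Among P7 MB cells, cluster P7.MB.4 had the highest Slc6a3 level, the dopamine transporter gene, with a mean of 3340 FPKM. In its 7 cells Kcnd3 was 33.6, 27.98, 27.3, 19.5, 15.0, 9.13 and 6.39 FPKM, and 11 of the other 23 P7 MB cells had it. In the 8 cells of the same label on the exchanged plates Kcnd3 was found in 8, between 4.40 and 23.2, against 19 of 37 others. Kcnn3 was found in 7 of 7 and 8 of 8 of these cells. Kcnj6 was 44.7, 29.3, 27.3 and 14.9 FPKM in 4 of the 7 and found in 5 of the 8, against 6 of 23 and 5 of 37 other MB cells. All 3 genes were found in a larger share of this cluster than of the other P7 MB cells on both sets of plates, for Kcnn3 against 18 of 23 and 30 of 37.

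Cluster P7.MB.2, of 4 cells with Th at a mean of 43.1 FPKM and no cell with Slc6a3, also had Kcnj6, at 28.4, 21.3, 18.0 and 0 FPKM. None of its 4 cells had Kcnd3. Of the 7 cells of the same label on the exchanged plates, 3 had Kcnj6, at 13.7, 3.98 and 2.35 FPKM, and 2 had Kcnd3, at 6.65 and 2.41. The cluster was set apart by Kcnq5, at 13.5, 10.9, 8.95 and 0 FPKM, against 1 of 26 other MB cells, and by 3 of 7 against 2 of 38 on the exchanged plates. In P7.MB.3, Kcnk16 was 119, 32.4, 0 and 0 FPKM, with 3 of 26 other cells having it, and 89.01, 52.5, 39.9, 2.86, 0 and 0 on the exchanged plates, with 7 of 39 others; Kcnj6 was found in none of its 4 and 6 cells. P7.MB.1 led in Kcnab1, found in 10 of 15 cells against 2 of 15 others (12 of 24 against 4 of 21 on the exchanged plates), and in Kcnc2, found in 12 of 15 against 5 of 15 (15 of 24 against 10 of 21).

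At E15.5, dopaminergic identity genes were more frequent in cluster E15.MB.2: of its 20 cells 13 had Th and 20 had Nr4a2, against 13 and 7 of the 68 cells of E15.MB.1. Kcnip4 was found in 12 of them, with a mean of 129 ± 222, against 23 of 68 other MB cells, and Kcnd3 in 15 with a mean of 27.5 against 22 of 68. E15.MB.1 had Kcnn1, Kcnf1 and Kcnc4 instead, in 26, 24 and 31 of 68 cells against 2, 1 and 3 of 20. In the forebrain, E15.FB.2, whose 24 cells all had Isl1, carried the BK genes: Kcnmb2 was found in 20 of 24 cells, with a mean of 162 ± 185, against 10 of 60, and Kcnma1 in 17 of 24 against 24 of 60. Kcnh7 was found in 20 of 24 against 26 of 60. E15.FB.1 had Kcnn3 in 23 of 60 cells against 2 of 24 and Kcnh1 in 15 of 60 against none.

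In P7 forebrain, cluster P7.FB.1, in which 9 of 10 cells had Ghrh, led in Kcnk9, found in 5 of 10 cells against 2 of 21 (7 of 16 against 3 of 34 on the exchanged plates). P7.FB.2 led in Kcnmb2, found in 8 of 21 against none of 10 (8 of 34 against 1 of 16). In the olfactory bulb, Kcnmb2 was found in 3 of 5 cells of P7.OB.1, the cluster with the most Dcx, an immature neuron gene, at a mean of 392 FPKM, and in none of 11 others (5 of 15 and none of 37 on the exchanged plates). P7.OB.2 led in Kcnk3, in 4 of 5 against 3 of 11 cells (11 of 28 against 6 of 24), and P7.OB.3 in Kcna2, in 4 of 6 against 1 of 10 (3 of 9 against 3 of 43). With 4 to 7 cells in most P7 clusters, shares have wide counting intervals. Several genes that led a P7 cluster on the matching plate did not do so on the exchanged plates. The log2 fold over the other cells of the region went from 4.10 to -0.26 for Kcnt1 in P7.OB.2, from 3.71 to -1.63 for Kcnmb4 in P7.OB.3, from 2.43 to -0.24 for Kcnk12 in P7.MB.1 and from 3.17 to -0.18 for Kcnmb2 in P7.MB.2. It shrank from 4.57 to 0.34 for Kcnj3 in P7.MB.3, from 4.62 to 0.04 for Kcnh6 in P7.OB.1 and from 3.44 to 0.42 for Kcna2 in P7.OB.3.

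**Figure D4:**
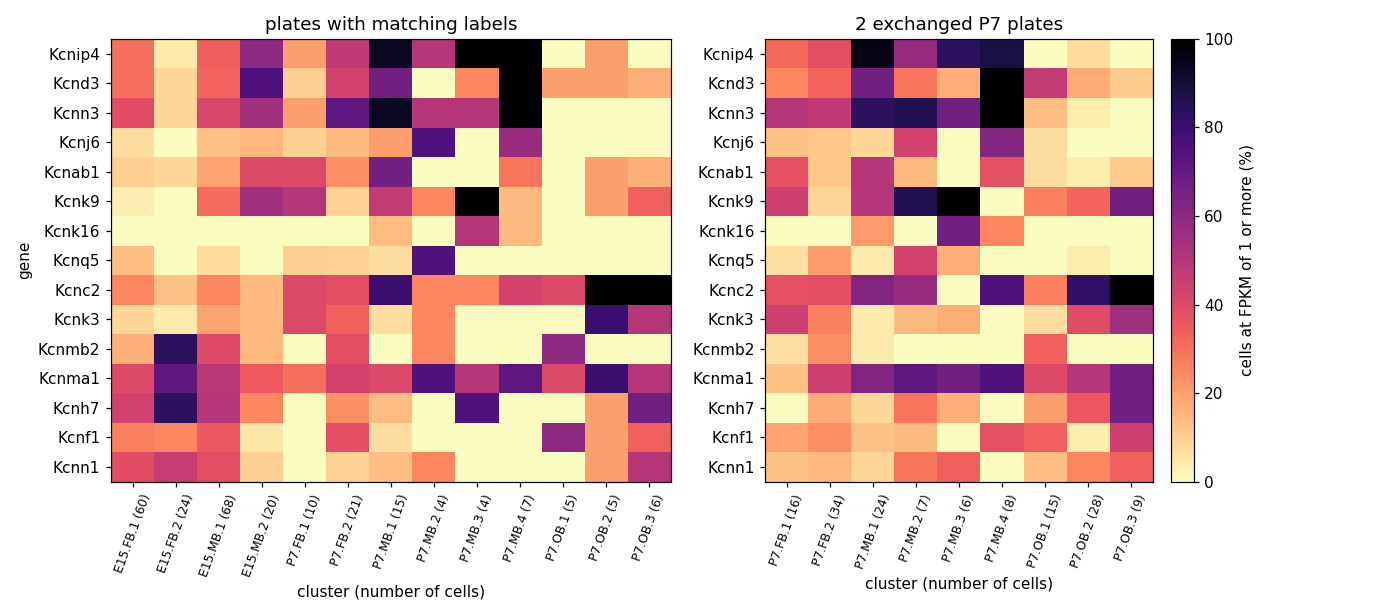
Share of cells with FPKM of 1 or more for 15 Kcn genes (rows) in the authors' clusters (columns, number of cells in brackets), on the plates with matching labels (left, 13 clusters) and on the 2 exchanged P7 plates (right, 9 clusters). Kcnip4, Kcnd3 and Kcnn3 are in all 7 cells of P7.MB.4, Kcnk16 is most frequent in P7.MB.3, and Kcnc2 is in all cells of P7.OB.2 and P7.OB.3 on the left.

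Genes that act with these channels were listed as partners, namely G-protein-coupled receptors and RGS proteins upstream of GIRK channels, Kv4 and Kv1 complex members and others. Of 35 listed, 32 passed the same minimum; 3 were higher and 1 lower in E15.5 MB over FB, where 7.21% and 7.7% of all genes were, and 7 and 2 in P7 MB over FB, against 9.03% and 11.6%. In P7 MB over OB 12 were higher and 1 lower, against 25.8% and 17%, and in P7 FB over OB 14 and 4, against 26.8% and 15.1%. In P7 MB over FB the higher genes included some of the receptors that act on GIRK channels. Drd2, the dopamine D2 receptor, had means of 43.8 and 9.53 FPKM and was found in 73.3% and 25.8% of cells, a log2 fold of 2.09 (2.93 on the exchanged plates). The adenosine receptor gene Adora1 had a log2 fold of 2.17 (2.00) and the kappa opioid receptor gene Oprk1 of 1.95 (1.85), while Gabbr2, encoding a GABA-B receptor subunit, had 1.01 (0.22). Other receptor genes of the list had negative folds, at -0.999 (0.14) for Sstr1, -0.81 (-1.90) for Oprm1, -0.78 (-0.96) for Sstr2 and -0.57 (-0.64) for Htr1a. The 2 genes lower past 2-fold were Abcc8, the sulfonylurea receptor gene, at -1.43 (-0.25), and Oprd1, the delta opioid receptor gene, which was listed at 0 in MB. Rgs6 and Rgs7, whose products speed the closing of GIRK channels, had log2 folds of 1.36 (1.59) and 1.06 (1.09), and Lgi1, a secreted partner of Kv1 channels, of 1.44 (1.61). Over OB, Oprk1, Adora1 and Drd2 had log2 folds of 5.50, 4.75 and 3.26 (4.56, 3.84 and 3.67), and Dpp10, a Kv4 partner, of 2.71 (1.70), whereas Rgs7bp was lower, at -2.00 (-1.34).

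Between ages, more Kcn genes had lower than higher FPKM at P7, as did genes in general. In MB, 5 of 71 were higher and 29 lower at P7 than at E15.5 (7.04% and 40.8%), where 4.75% and 54.5% of all protein-coding genes were. In FB, 7 were higher and 23 lower (9.86% and 32.4%), against 6.07% and 54.7%. The median total FPKM per cell was 972789 in E15.5 MB and 1.05e+06 in E15.5 FB, against 493126 and 517940 at P7, and the median log2 fold over all protein-coding genes was -1.11 in MB and -1.12 in FB, against -0.72 and -0.16 over the Kcn genes. Relative to those medians, 45 of 71 Kcn genes lay above the median gene in MB and 52 in FB. The pseudocount of 1 limits how negative a fold can be for a gene low at E15.5. The lowest genes thus lie above the median gene whatever their change, and the part of this in these counts was not tested. When each cell was rescaled to the same total, the counts were 12 higher and 12 lower in MB, against 9.16% and 18.8% of all genes, and 21 and 10 in FB, against 11.3% and 19.7%. Age went with sort date, a longer dissociation, a density gradient and the library plates, and these cannot be told apart from it. The summed level of immature neuron markers, with a median of 1779 FPKM in E15.5 FB and 2104 in E15.5 MB, was 952 and 1204 at P7, and its part in these differences was not tested.

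Genes lower at P7 in both regions included members of the EAG, ERG and ELK, BK, SK and TREK groups. Of the 7 EAG, ERG and ELK genes, 5 were lower in MB and 5 in FB and none was higher, where 54.5% and 54.7% of all genes were lower. Rescaled, 3 were lower in MB, against 18.8% of all genes, and 3 were lower and 1 higher in FB, against 19.7% and 11.3%. Kcnh7 had means of 16.6 in E15.5 MB and 1.72 in P7 MB, a log2 fold of -2.69 (-1.47 rescaled), and of 22.5 and 2.19 in FB, a log2 fold of -2.88 (-2.05). Kcnh4 had log2 folds of -3.68 in MB (-2.59) and -2.16 in FB (-1.08). Kcnn1 had means of 11.4 and 1.11 in MB and of 21.7 and 0.312 in FB, log2 folds of -2.55 (-1.78) and -4.11 (-2.90). Kcnk10 had log2 folds of -2.82 in MB (-1.86) and -2.03 in FB (-1.05), and Kcnma1 of -1.78 (-0.94) and -3.14 (-2.06). Kcnmb2 had log2 folds of -3.85 in MB (-2.84) and -1.67 in FB (-0.51).

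Of the 5 genes higher at P7 in MB, Kcnn3 and Kcnc2 were the most widely found. Kcnn3 had means of 17.7 in E15.5 MB and 45.9 in P7 MB, a log2 fold of 1.33 (2.10 rescaled). Kcnc2 had means of 3.34 and 8.01, a log2 fold of 1.05 (1.62). Over 11 alternatives, these folds lay between 0.56 and 2.31 for Kcnn3 and between 0.58 and 1.62 for Kcnc2. They were past 2-fold in 10 and 7 of the alternatives. Over all 3 P7 plates, 2 genes were higher at P7 in MB and 1 in FB. Kcnip4 had a log2 fold of 0.99 (2.01), short of 2-fold before rescaling and between 0.44 and 3.29 over the alternatives. The share of MB cells with Kcnip4 was 39.8% at E15.5 and 90% at P7. Kcnj6 stood at 0.24 in MB (1.32 rescaled) and at -0.54 in FB, where rescaling turned the sign (1.26). Kcnd3 had log2 folds of -0.40 in MB, where rescaling turned the sign (0.36), and -1.11 in FB (-0.25). In FB, Kcnab1 was higher at P7, at 12.8 against 4.93 FPKM, a log2 fold of 1.22 (2.20), and Kcnip4 had 0.49 (1.78). Of the 32 partners, 4 were higher and 8 lower in MB at P7, against 4.75% and 54.5% of all genes. Oprk1, Drd2, Lgi1 and Gabbr2 were higher, with log2 folds of 3.04, 1.58, 1.19 and 1.10, and the lower genes included Cntn2, Sstr2 and Oprl1, at -1.86, -1.57 and -1.56. These partner folds are without rescaling, where the median over all protein-coding genes in MB was -1.11.

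**Figure D5:**
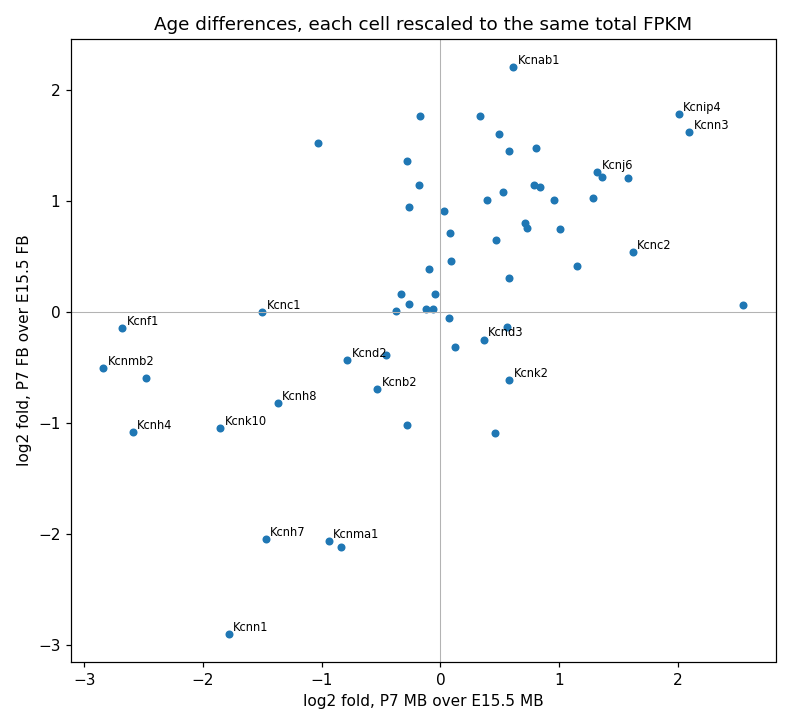
Log2 fold of P7 over E15.5 for 60 Kcn genes after each cell was rescaled to the same total FPKM, in MB (horizontal) and FB (vertical); 11 genes with a group listed at 0 are left out. Kcnip4 and Kcnn3 are at the upper right, and Kcnn1, Kcnh7, Kcnh4 and Kcnk10 are at the lower left.

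Some values are uncertain for reasons of annotation. Whether counting used strand is not given in the sources used here, so fragments of Kcnd3 and of Kcnd3os, which overlaps it on the opposite strand, cannot be told apart. Kcnd3os had means of 4.28 FPKM in P7 MB and 6.84 in P7 OB, where Kcnd3 had 5.88, but 0.673 in P7 FB and 1.49 in E15.5 MB. Kcnmb4os2 reached 3.68 in P7 MB beside 8.61 for Kcnmb4. Kcnab3os stayed at or under 0.880, and Kcnq1 was listed at 0 in all groups beside 0.215 to 1.77 for Kcnq1ot1. Kcnmb1 lies within Kcnip1 on chromosome 11 and was listed at 0 in all groups. Kcna3, Kcna2, Kcna10 and Kcnc4 neighbour one another on chromosome 3, and Kcna5, Kcna1 and Kcna6 on chromosome 6. In both clusters of genes the members had unlike patterns, such as Kcna6 with 25.2 FPKM in P7 MB beside Kcna1 listed at 0.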

How the data were processed

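RNA of 473 single sorted cells had been deposited by the authors as 1 table of FPKM; HISAT2, Cuffnorm and build mm10 are named in the submitters' processing notes, while tool versions and the annotation release are not given in the sources used here. FPKM is scaled by length and library, its low values showed no whole-fragment steps, and totals differed between cells, so depth is unknown and no count test was run. Symbols and coordinates came from GENCODE M21 (28636 of 28952 features matched). Some genes of the family are not reported here by name. Columns were assigned to cells by name. Of 396 cells that passed quality control, 249 lay on the 3 plates whose label gene numbers correlated with the columns at 0.9 or more. The fixed design used all 3 P7 plates; leaving out 2 of them was decided after seeing the data. No doublet caller was run, since wells were filled by sorting, and no analysed columns were identical (0).

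Means over cells were compared as log2 folds with a pseudocount of 1, called past 2-fold, over the 13632 protein-coding genes whose mean reached 1 in any group. Shares carry exact Clopper-Pearson 95% intervals, and a share of 0 allows 3 cells of the group. The named genes were Kcnip4, Kcnj6 and Kcnd3, the leading gene of each group, members of a class when it is described, and, per comparison, up to 10 in either direction past 2-fold with a mean of at least 5 and found in at least 25% of cells of the higher group; clusters took 3 genes each. The genes and lists were chosen with earlier results of these data known. The fold script was tested on simulated data. Alternatives covered the pseudocount, filter, mean of logs, highest cells, rescaling, cell depth, quality control and plates. Analyses used Python 3.11.15, numpy 2.4.6, pandas 2.3.3 and scipy 1.17.1.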

Additional observations from a re-analysis of the deposited data

How the results depend on the processing

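Limits are 1 pool per group, 16 P7 OB cells with few genes each, and unknown depth. No paired analysis was possible because replicate numbers only name cells. Of 91 named folds, leaving out the filter on low means moved none and adding cells that failed quality control moved 6. Rescaling moved 28 and reversed none of those past 2-fold, though Kcnj6 in FB by age turned from -0.54 to 1.26, and the mean of log2 values moved 67 and reversed 1, Kcnd3 in FB by age (0.13). The exchanged plates alone moved 40 of 56 named P7 folds and reversed 2. All 3 P7 plates together moved 38 of 85 named folds and reversed none, and with rescaling moved 54 and reversed 1. Counts of genes past 2-fold are written as higher, then lower. In E15.5 MB over FB (9 and 5), the lower count was 9 with a pseudocount of 0.1 and 2 after rescaling, the mean of logs gave 4 and 0, 1 E15.5 plate alone gave 18 and 10, and the other plate 10 lower. In P7 MB over FB (9 and 13), a pseudocount of 0.1 gave 14 and 20, the mean of logs 5 lower and the exchanged plates alone 4 lower. In P7 MB over OB (24 and 21), the mean of logs gave 7 lower, the exchanged plates alone 9 and 10, and all 3 P7 plates with rescaling 12 higher. In P7 FB over OB (25 and 16), the mean of logs gave 10 and 5, all 3 plates 10 lower, all 3 with rescaling 13 higher, and the exchanged plates alone 9 and 9. In MB by age (5 and 29), the mean of logs gave 8 lower, rescaling 12 and 12, all 3 plates 2 higher, and all 3 with rescaling 9 and 10. In FB by age (7 and 23), the pseudocount of 0.1 gave 12 higher, the mean of logs 5 lower, rescaling 21 and 10, failed cells added 4 higher, all 3 plates 1 higher, 1 E15.5 plate alone 13 higher, and all 3 with rescaling 15 and 12. With cells of 4000 or more genes alone, of which 4 were from OB, log2 folds reversed for Kcnab3 (0.80) and Kcnd2 (0.42) in P7 MB over OB and for Kcnab3 (1.40), Kcnd2 (0.80), Kcnk1 (0.11) and Kcnmb4 (-0.67) in P7 FB over OB. In P7 FB over OB, Kcnk10 reversed to -0.38 over all 3 plates with rescaling and to -0.63 on the exchanged plates alone, where Kcnd2 reversed to 0.48. Beyond the construction of each alternative (fewer cells, other scale), the cause was not tested.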
